A study of Mus musculus with 10 samples.

Results

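Mitosis is driven by cyclin-dependent kinase 1 with its A- and B-type cyclins and by the Polo and Aurora kinases, which condense the chromosomes and build the spindle. Kinesin motors and spindle proteins align the chromosomes, the checkpoint holds the anaphase-promoting complex until every kinetochore is attached, and cytokinesis proteins then split the cell. In the embryonic cortex the radial glia divide at the ventricular surface, so transcripts of these genes come mostly from dividing progenitors. The 38 genes described here were taken by name and cover cyclins and kinases, the chromosomal passenger complex, checkpoint and anaphase control, centromere proteins, spindle motors, spindle assembly, cytokinesis, and the chromosome proteins Top2a and Mki67. They are 38 of the 38803 gene symbols of the series, and the subunits of the Ndc80 kinetochore complex were left out of them. All 38 were found, Diaph3 under its older symbol Diap3, and all 38 passed the filter on low values, which 13522 genes passed.

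Total RNA of the dorsal telencephalon was sequenced from mouse embryos of mixed C57/Bl6 and 129 SvJ background on embryonic day 12. In the 5 controls Rnu11 was heterozygous for the floxed allele (Rnu11WT/Flx), and in the 5 mutants it was homozygous for it (Rnu11Flx/Flx). Both groups were heterozygous for Emx1-Cre, which is active in dorsal telencephalic progenitors, so controls can lose 1 copy of Rnu11 there, and no library with intact Rnu11 was compared. Rnu11 encodes U11, the small nuclear RNA that recognises the start of the rare minor introns. Whether the libraries of a group come from different embryos is not in the labels, and the p-values therefore measure the spread between these libraries, which may in part be technical.

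Rnu11 stood at 2386, 2031, 2817, 1913 and 2266 FPKM (sequenced fragments relative to transcript length and library size) in control 1 to control 5 and at 712, 473, 511, 1344 and 1421 FPKM in mutant 1 to mutant 5. Each mutant lay below each control, with a mutant mean of 39.1% of the control mean (p = 0.00794 by an exact permutation test, two-sided, which is the lowest value that 5 against 5 can give). Control 5, mutant 4 and mutant 5 stood apart from the other 7 libraries, with Rnu12, the U12 small nuclear RNA, at 487 to 688 FPKM against 5.91 to 33.8 FPKM. These 3 libraries are called the second set below and the other 7 the first set. The split comes from the data, crosses genotype and leaves 1 control in the second set. Roughly estimated depths ran from 14800000 to 21400000 fragments in the second set, and from 9770000 to 20400000 in the first. The tissue label was checked with markers: the radial glial gene Pax6 averaged 25.2 FPKM over controls and 31.0 FPKM over mutants, while the ventral gene Dlx1 ran from 0.60 to 17.8 FPKM and from 0.66 to 6.65 FPKM, with control 4 the highest. In bulk tissue, fewer dividing cells and less RNA per dividing cell cannot be told apart.

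None of the 38 mitosis genes passed the test between mutants and controls. On the log2(FPKM + 1) scale the mutant minus control differences ran from -0.18 for Ect2 to 0.46 for Ube2c, and the smallest adjusted p was 0.546, for Plk1 (limma, adjusted over all 13522 genes). Of all tested genes 0.155% were called, 0.0887% higher and 0.0666% lower in mutants, so a count of 0 among 38 is near the background. These are 12 higher and 9 lower genes, and with libraries rescaled to a common median ratio they were 11 and 19, a shift of the median of all genes from 0.11 to 0.00. An unadjusted p under 0.05 was reached by 1 member, Plk1, against 8.76% of all tested genes. The groups did not separate for any member, while 1.52% of all tested genes lay wholly higher and 0.377% wholly lower in mutants. The median difference of the members was 0.08 and that of all tested genes 0.11, so the members lay at -0.03 relative to it, with 17 of 38 above it. The difference was above 0 for 29 members as deposited, against 75.7% of all genes, and for 15 members after that rescaling, against 50.4%, so no direction is given for the group.

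The intervals show what size of change these libraries leave possible. For 31 of the 38 members the 95% confidence interval of the difference lay within a 1.5-fold change in either direction (0.58 on the log2 scale). The 7 others were Plk1, Birc5, Ube2c, Cenpe, Kif20b and Mki67, whose upper bounds passed that size, and Pttg1, which passed it on both sides. With the library set as a second term the intervals narrowed, from a median half-width of 0.34 to 0.22, and 37 of 38 lay within the 1.5-fold range, all but that of Pttg1. With that term 0 members passed (smallest adjusted p = 0.289, for Ube2c), against 0.547% of all genes. There 19 of 38 differences were above 0, and the median of the members was -0.003, against 0.093 for all genes. In the first set alone, with 4 controls and 3 mutants, 0 members passed against 0.747% of all genes. The median of the members was 0.05 there, against 0.16 for all genes. The count was also 0 with rescaling (0.222% of all genes), with the replicate number as a block (0.104%) and without control 5 (0.584%). Without control 5, 9 members reached an unadjusted p under 0.05, against 20.5% of all genes, and their median difference was 0.20, against 0.14 for all genes. With the set as a term and rescaling together 0 members passed as well (0.658% of all genes, smallest adjusted p among members 0.0919). There 11 members reached an unadjusted p under 0.05, against 13.8% of all genes, and the median of the members was -0.11, with 4 of 38 above 0, against 0.00 for all genes.

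**Figure D1:**
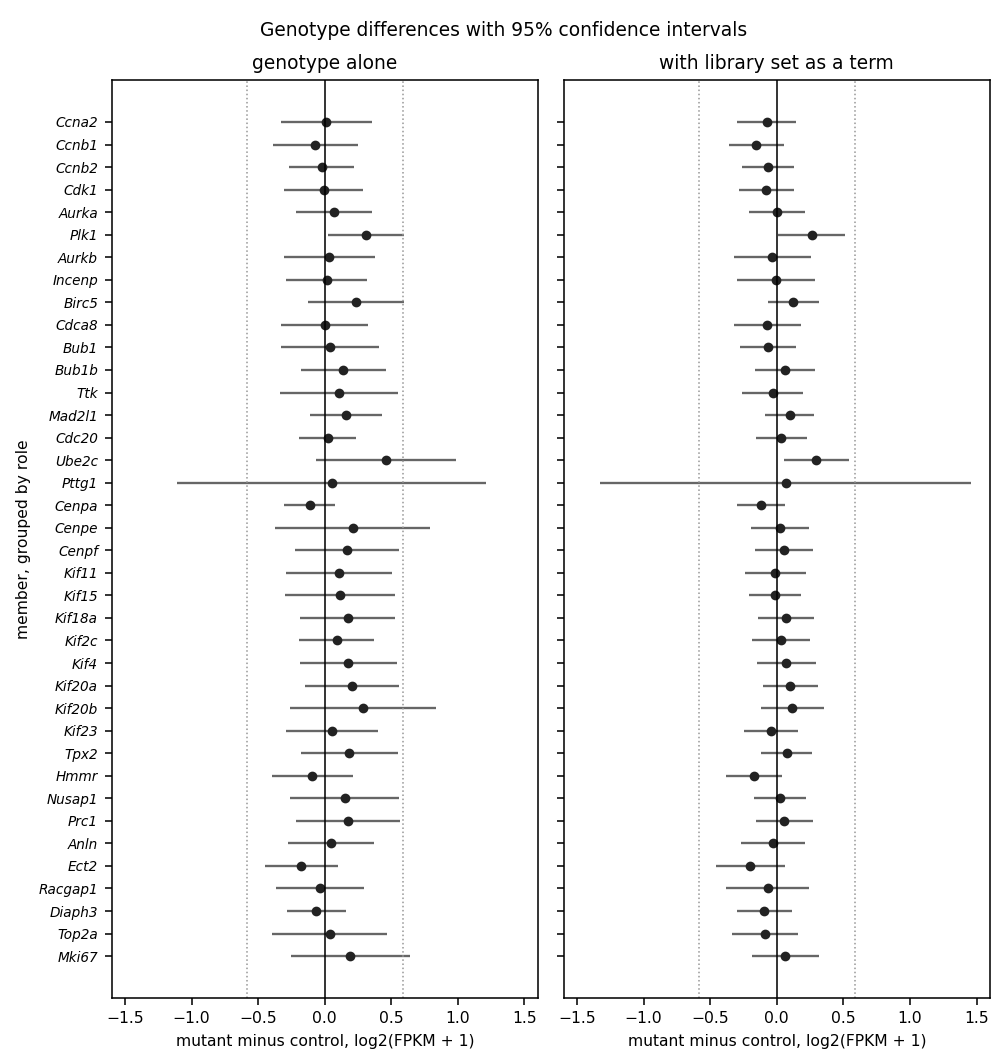
Mutant minus control difference of each of the 38 members on the log2(FPKM + 1) scale (points) with its 95% confidence interval from limma (lines), for genotype alone and with the library set as a term. Dotted lines mark a 1.5-fold change. With the set as a term all intervals but that of Pttg1 lie between the dotted lines.

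Most members differed more between the library sets than between the genotypes. Of 38 members 26 were higher in each library of the second set than in any of the first, against 15.5% of all tested genes, and 0 lay wholly lower, against 6.28%. The median difference between the second and the first set, from a fit that also held genotype, was 0.43 over the members and 0.06 over all tested genes, and 36 members lay above 0, against 56.6% of all genes. Control 5 held the highest value of 30 members and control 3 the lowest of 27. The mean log2 level of the 38 genes was 5.61 in control 5, 5.48 in mutant 4 and 5.40 in mutant 5, and 4.88 to 5.17 in the other 7 libraries. For 35 of the 38 members the difference between sets was larger in size than the difference between genotypes. For this count, and for those of the highest and lowest library, the share over all tested genes was not computed. They are therefore not read as particular to the members. The first set held 4 controls and 3 mutants, so genotype and set were not balanced. A genotype difference given without the set term can therefore hold part of the difference between sets. Across the members these differences correlated with a Spearman rho of 0.65, a description over genes that share the same libraries. No test was made between the sets, which were found in the data.

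**Figure D2:**
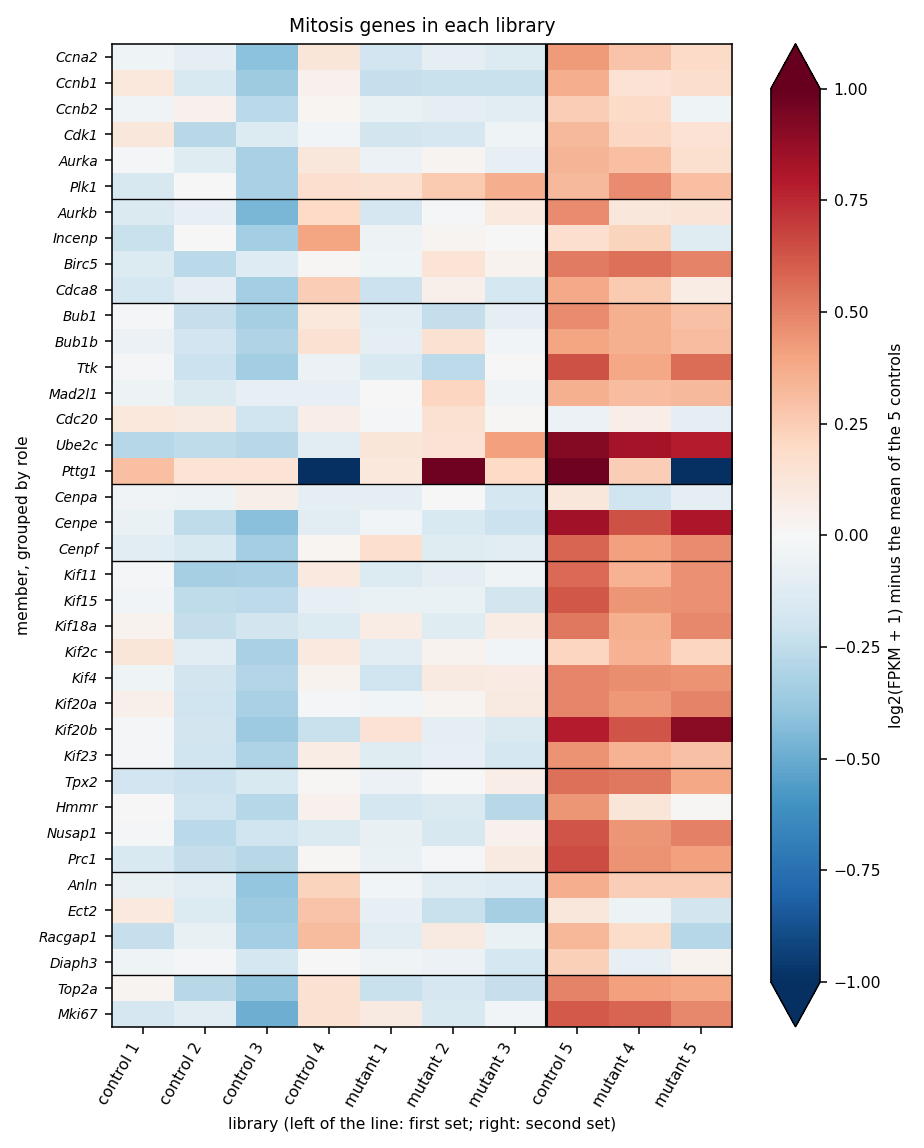
Level of each member (rows, grouped by role with lines between the groups) in each library (columns) as log2(FPKM + 1) minus the mean of the 5 controls, with colours limited to values from -1 to 1. The 3 libraries right of the thick line form the second set, where 26 of 38 members lie above every library on the left.

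Promoters of mitotic genes are known to carry the cell cycle homology region, a short element bound by MuvB complexes that silence these genes outside G2 and mitosis, and CCAAT boxes bound by NF-Y. The promoters of the members are shown, from RefSeq on build GRCm38.p6. Windows of 250 bases before to 50 bases after the start were held for 33 of the 38 genes, as 35 windows. For 25 windows the bases after the RefSeq start were found whole in a GENCODE M21 transcript of the gene. They were not for the windows of Aurka, Kif2c, Mad2l1, Mki67, Anln, Kif23, Ccnb2, Hmmr, Birc5 and Kif11, and that of Mad2l1 ends before the gene begins in GENCODE, so the starts of these 10 are less certain. The letters TTTGAA, on either strand, were found for 24 of 33 members (72.7%), against 20.2% of the 27025 genes with a window, and for 22 of them within 50 bases of the start. The variant TTTAAA was found for 8 members (24.2%, against 14.9%) and CCAAT, on either strand, for 24 (72.7%, against 41.1%). Both TTTGAA and CCAAT were present for 20 members, and neither for Birc5, Kif18a, Mad2l1, Nusap1 and Pttg1. These are matches of letters, with no binding measured. Any part of these elements in the differences between libraries was not tested. The 24 bases around the TTTGAA nearest to the start are given for 10 members described below, in the direction of the gene, with the 6 matching bases in capitals (TTCAAA where the match is on the other strand):

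Cdk1 (chr10:69352913-69352936, minus strand): cgcggcgagTTTGAAactgctggc
Plk1 (chr7:122159456-122159479, plus strand): agcgccgcgTTTGAAttcggggag
Cdc20 (chr4:118437347-118437370, minus strand): cagttgggtTTTGAAggagccaat
Ube2c (chr2:164769891-164769914, plus strand): gggttgcaaTTCAAAcgcgggcgg
Cenpf (chr1:189688070-189688093, minus strand): ggcgggcagTTTGAAtcgctcgtg
Kif20b (chr19:34922356-34922379, plus strand): ccgccattgTTTGAAtttgaaaac
Prc1 (chr7:80294437-80294460, plus strand): ctggctcggTTTGAAttccgcggg
Ect2 (chr3:27153825-27153848, minus strand): ctggattttTTTGAAtcggaggcg
Racgap1 (chr15:99651637-99651660, minus strand): gtgcgtgatTTTGAAccggatctg
Top2a (chr11:99024198-99024221, minus strand): agataaaggTTCAAAtgaaactag

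The match began 15 bases before the start in Cdk1, 18 in Cdc20, 29 in Ube2c, 5 in Prc1 and 23 in Top2a. It began 30 bases after the start in Plk1, 2 in Cenpf, 7 in Kif20b, 15 in Ect2 and 5 in Racgap1. The 250 bases before the start of Top2a and Mki67, which overlap no annotated exon, show how the motifs (TTTGAA and CCAAT on either strand, in capitals) lie along a promoter. That of Top2a held 2 matches of TTTGAA and 6 of CCAAT, and that of Mki67 2 and 3:

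Top2a (chr11:99024190-99024439, minus strand): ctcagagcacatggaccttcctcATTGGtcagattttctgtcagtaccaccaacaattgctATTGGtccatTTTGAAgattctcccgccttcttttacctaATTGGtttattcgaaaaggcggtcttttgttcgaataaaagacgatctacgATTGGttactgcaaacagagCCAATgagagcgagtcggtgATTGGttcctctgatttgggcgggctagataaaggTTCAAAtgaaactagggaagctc
Mki67 (chr7:135716380-135716629, minus strand): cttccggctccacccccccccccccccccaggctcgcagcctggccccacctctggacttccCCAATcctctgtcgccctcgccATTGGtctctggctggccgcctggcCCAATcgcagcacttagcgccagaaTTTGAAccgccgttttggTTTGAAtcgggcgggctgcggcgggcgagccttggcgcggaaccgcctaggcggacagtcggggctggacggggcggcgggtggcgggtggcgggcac

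Cyclins and mitotic kinases showed 0 calls among 6, with a median difference of 0.00. Cdk1, the kinase that triggers entry into mitosis (chromosome 10, 69335146 to 69352938 in GRCm38), lay at 216, 166, 182, 197 and 251 FPKM in the 5 controls and at 176, 178, 194, 232 and 222 FPKM in the 5 mutants. The groups overlapped throughout, with a mean of 202 ± 33.1 FPKM over controls and 200 ± 25.3 FPKM over mutants (SD, n = 5) and a difference of -0.01 (95% confidence interval -0.31 to 0.29). Ccnb1, the B-type cyclin that activates Cdk1, lay at 86.6, 72.5, 62.9, 83.0 and 104 FPKM in controls and at 68.4, 69.1, 69.0, 89.3 and 91.2 FPKM in mutants. In both groups its values above 89 FPKM came from the second set, and the difference was -0.07 (SE 0.15, adjusted p = 0.904). Ccna2, the A-type cyclin of S and G2 phase, averaged 117 FPKM in both groups, Ccnb2 50.1 and 49.1 FPKM, and Aurka, the kinase of the spindle poles, 41.4 and 43.2 FPKM in controls and mutants.

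Plk1, the Polo kinase that acts from centrosome maturation to cytokinesis (chromosome 7, 122159439 to 122169873), had the smallest p of the members. It lay at 8.47, 9.61, 7.46, 10.9 and 12.3 FPKM in controls and at 10.8, 11.7, 12.6, 13.7 and 12.1 FPKM in mutants. Only control 4 and control 5 reached the range of the mutants. The means were 9.75 ± 1.92 and 12.2 ± 1.07 FPKM (SD, n = 5), a difference of 0.31 (SE 0.13, 95% confidence interval 0.03 to 0.60), which did not pass over all genes (limma, adjusted p = 0.546). In the fit that also held the library set it was 0.26 (adjusted p = 0.375). An exon of a predicted transcript, Gm44985, overlaps Plk1 on the other strand. The kit marks strand, but no source used here says whether counting used it, so the values of both genes are uncertain.

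The chromosomal passenger complex, in which Incenp, Birc5 and Cdca8 place the kinase Aurkb at centromeres and later at the midzone, showed 0 calls among 4. Aurkb lay at 14.6, 15.2, 11.5, 18.8 and 22.9 FPKM in controls and at 14.3, 16.1, 17.4, 17.6 and 17.8 FPKM in mutants. Both groups averaged 16.6 FPKM, with an SD of 4.37 in controls and 1.46 in mutants. Birc5, also known as survivin, lay at 27.8, 25.3, 27.9, 30.9 and 44.4 FPKM in controls and at 29.7, 33.8, 31.4, 45.3 and 43.6 FPKM in mutants. Its 3 values above 40 FPKM were those of the second set, and the genotype difference was 0.23 (SE 0.17, adjusted p = 0.696). Cdca8, or borealin, lay at 51.2, 54.2, 45.6, 68.8 and 75.6 FPKM in controls and at 49.99, 60.2, 51.3, 69.7 and 61.1 FPKM in mutants. Its groups overlapped with a difference of 0.00 (95% confidence interval -0.33 to 0.33), and Incenp averaged 26.5 and 26.4 FPKM.

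Among genes of the checkpoint and of anaphase control 0 of 7 passed, and all 7 differences were above 0, with 4 of them above the median of all genes. Ube2c, the ubiquitin-conjugating enzyme of the anaphase-promoting complex (chromosome 2, 164769898 to 164778822), had the largest difference of the members. It lay at 30.3, 31.0, 30.5, 34.3 and 71.2 FPKM in controls and at 40.5, 41.2, 49.5, 67.0 and 64.6 FPKM in mutants. In the first set each mutant lay above each control, and in the second set control 5 lay above both mutants. The difference was 0.46 (SE 0.24, adjusted p = 0.606) over all libraries, 0.30 (adjusted p = 0.289) with the set as a term and 0.46 (adjusted p = 0.0965) in the first set alone. An exon of Tnnc2 overlaps Ube2c on the other strand, and the same limit holds for Ccna2, Cdca8, Cdc20, Kif18a, Kif4, Kif20a, Nusap1 and Prc1, each overlapped by an exon of a gene on the opposite strand. Top2a shares exon bases with a small nucleolar RNA gene on its own strand, Gm23451, and Ccnb1, Ccnb2 and Kif4 have pseudogenes of their name, so reads may be shared there whether or not strand was used.

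Cdc20, the activator of the anaphase-promoting complex, lay at 88.6, 87.7, 71.6, 86.4 and 79.2 FPKM in controls and at 81.1, 91.8, 82.9, 86.3 and 77.2 FPKM in mutants. It was one of the members whose second set was not higher, and its genotype interval was among the narrow ones, at 0.02 (95% confidence interval -0.19 to 0.23). Mad2l1, the checkpoint protein that holds Cdc20, lay at 23.8, 22.2, 23.3, 23.2 and 31.8 FPKM in controls and at 24.7, 28.8, 23.98, 30.8 and 31.1 FPKM in mutants. Control 5 overlapped the mutants while the other 4 controls lay below them, and the difference was 0.16 (SE 0.12, adjusted p = 0.718). The checkpoint kinases Bub1 and Ttk and the related Bub1b lay at differences of 0.04, 0.11 and 0.14. These became -0.06, -0.03 and 0.06 with the set as a term.

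Pttg1, or securin, which holds separase inactive until anaphase, varied more between libraries than any other member. It lay at 52.4, 46.7, 46.9, 13.9 and 84.4 FPKM in controls and at 45.8, 84.1, 48.9, 50.4 and 17.1 FPKM in mutants. The low libraries, control 4 and mutant 5, and the high ones, control 5 and mutant 2, fell in both genotypes and in both sets. Its SE of 0.51 was the largest of the members, against a median of 0.16, so a change of up to 2-fold in either direction lies within its interval (-1.11 to 1.21).

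Centromere genes showed 0 calls among 3. Cenpe, a kinesin of the kinetochore, lay at 14.5, 12.6, 11.2, 14.1 and 28.1 FPKM in controls and at 14.9, 13.6, 13.0, 24.2 and 27.5 FPKM in mutants. Its level in the second set averaged 1.98 times that in the first, the largest ratio of the members. Genotype differed by 0.21 (SE 0.27, adjusted p = 0.831), and by 0.02 with the set as a term. Cenpf, a large kinetochore protein of G2 and mitosis, lay at 40.6, 39.5, 34.7, 44.7 and 66.6 FPKM in controls and at 49.6, 40.5, 40.7, 59.0 and 61.5 FPKM in mutants, and it too was highest in the 3 libraries of the second set. Cenpa, the histone H3 variant of centromeres, averaged 39.4 ± 2.38 FPKM in controls and 36.3 ± 2.10 FPKM in mutants (SD, n = 5), with a second set at 0.999 times the first.

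Spindle motors showed 0 calls among 8, and the second set lay above the first without overlap for all 8. Kif20b, a kinesin of the midzone and midbody whose loss is known to cause microcephaly in mice, lay at 8.82, 7.74, 6.73, 7.49 and 16.1 FPKM in controls and at 9.96, 8.33, 7.996, 14.3 and 17.6 FPKM in mutants. The difference of 0.29 (SE 0.25, adjusted p = 0.751) became 0.12 with the set as a term. Kif20a, the midzone kinesin that recruits Plk1, lay at 22.1, 18.4, 16.9, 21.1 and 30.2 FPKM in controls and at 20.9, 21.7, 22.8, 29.1 and 30.5 FPKM in mutants. The groups overlapped and the difference was 0.20 (SE 0.16, adjusted p = 0.731). Kif2c, a kinesin that shortens microtubules at centromeres, lay at 42.3, 36.0, 30.7, 41.5 and 45.3 FPKM in controls and at 35.8, 39.7, 38.05, 49.6 and 45.3 FPKM in mutants, a difference of 0.09 (SE 0.13). Differences of the other motors were 0.11 for Kif11, which pushes the spindle poles apart, 0.12 for Kif15, 0.17 for Kif18a, 0.18 for Kif4 and 0.05 for Kif23. With the set as a term they were -0.01, -0.01, 0.07, 0.07 and -0.05.

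Genes of spindle assembly and the midzone showed 0 calls among 4. Tpx2, which activates Aurka on the spindle, lay at 25.0, 24.5, 25.6, 28.8 and 42.4 FPKM in controls and at 27.4, 28.7, 29.9, 41.6 and 37.8 FPKM in mutants. Prc1, which bundles the microtubules of the midzone, lay at 33.0, 31.1, 30.3, 37.2 and 58.4 FPKM in controls and at 35.2, 36.3, 39.3, 50.7 and 49.3 FPKM in mutants. For both genes control 5 was the highest library, and their differences were 0.18 and 0.17 (adjusted p = 0.764 and 0.793). With the set as a term the differences were 0.08 and 0.06. Hmmr, a spindle pole protein, lay at 43.3, 37.7, 35.5, 44.8 and 59.3 FPKM in controls and at 38.4, 39.1, 35.6, 47.4 and 43.7 FPKM in mutants. Its groups overlapped, with a difference of -0.09 (SE 0.14, adjusted p = 0.858). Nusap1, which stabilises spindle microtubules, averaged 30.8 and 34.0 FPKM.

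Cytokinesis genes showed 0 calls among 4, and 3 of their differences were below 0. Ect2, the exchange factor that activates RhoA at the cleavage furrow, lay at 60.7, 51.5, 43.8, 69.2 and 61.3 FPKM in controls and at 53.3, 48.4, 44.7, 54.6 and 49.6 FPKM in mutants. Control 3 lay below every mutant and controls 1, 4 and 5 above every mutant, with a difference of -0.18 (SE 0.13, 95% confidence interval -0.45 to 0.10, adjusted p = 0.70). Racgap1, the centralspindlin subunit that binds Ect2, lay at 59.2, 66.2, 54.8, 87.1 and 87.9 FPKM in controls and at 64.6, 74.1, 66.6, 79.1 and 56.9 FPKM in mutants. Diaph3, a formin that builds actin filaments of the contractile ring, lay at 9.39, 9.62, 8.49, 9.72 and 11.6 FPKM in controls and at 9.48, 9.32, 8.49, 9.12 and 9.99 FPKM in mutants. Their differences were -0.04 and -0.06 (adjusted p = 0.955 and 0.869), and that of Anln, which links the ring to the membrane, was 0.05. The sets overlapped for Ect2, Racgap1 and Diaph3, with second-set means of 1.04 to 1.11 times those of the first.

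Top2a, the topoisomerase that untangles sister chromatids, had the highest FPKM of the members, with 312, 252, 232, 341 and 432 FPKM in controls and 263, 273, 261, 408 and 400 FPKM in mutants. Mki67, the proliferation marker that coats mitotic chromosomes, lay at 85.3, 88.5, 68.2, 106 and 147 FPKM in controls and at 102, 86.1, 93.9, 144 and 134 FPKM in mutants. Both were highest in the 3 libraries of the second set. Genotype differences were 0.04 (95% confidence interval -0.40 to 0.47) and 0.19 (-0.25 to 0.64), and neither passed (adjusted p = 0.969 and 0.799). They were -0.09 and 0.06 with the set as a term.

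**Figure D3:**
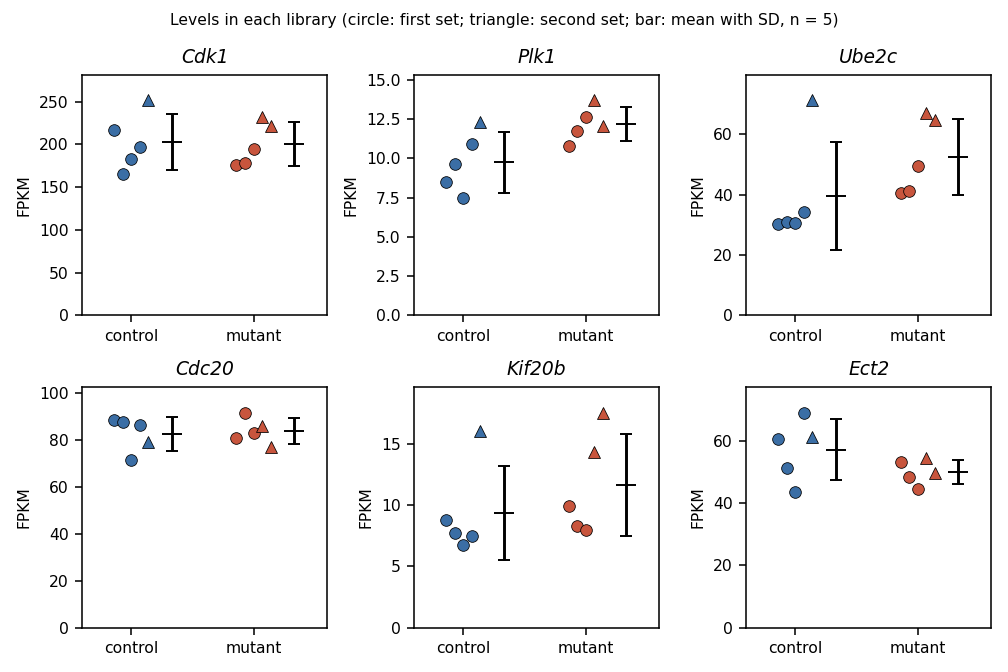
FPKM of 6 members in each of the 5 control and 5 mutant libraries, with first-set libraries as circles, second-set libraries as triangles, and the mean with its SD (n = 5) beside them. The triangles lie above the circles for Cdk1, Ube2c and Kif20b and among them for Cdc20 and Ect2.

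By role, the median difference between sets was 0.63 for Top2a and Mki67, 0.57 for centromere genes, 0.57 for spindle assembly, 0.52 for motors, 0.39 for checkpoint and anaphase control, 0.34 for cyclins and kinases, 0.34 for the passenger complex and 0.15 for cytokinesis. The ranges of the roles overlapped, from -0.07 to 0.81 for checkpoint and anaphase control, 0.02 to 0.93 for centromere genes and 0.11 to 0.38 for cytokinesis, and roles were not tested against each other. Single members ran from -0.07 for Pttg1 and -0.06 for Cdc20 to 0.81 for Ube2c, 0.87 for Kif20b and 0.93 for Cenpe. Across the 38 members it correlated with the length of the longest annotated transcript with a Spearman rho of 0.41, a description over genes that share the same libraries. The part of transcript length in the difference between the sets was not tested.

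Relative to the mean level of the other 37 members in the same library, a measure that takes out their shared shift between libraries, Hmmr was lower in each mutant than in any control. It lay 0.27 to 0.36 above the other members in controls and 0.08 to 0.21 in mutants on the log2 scale. By this measure 0.481% of all tested genes lay wholly lower in mutants and 0.688% wholly higher. Hmmr was singled out after its values were seen, and with the mean member level as a term it did not pass (limma, adjusted p = 0.275). Plk1 lay 1.64 to 1.93 below the other members in controls and 1.38 to 1.74 below in mutants. With that term 0 members passed against 0.34% of all genes, and Ube2c had the smallest adjusted p, at 0.272. The term is the mean of the members themselves and takes out any difference they share. This count therefore cannot show a shared difference.

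Spc24, a subunit of the Ndc80 kinetochore complex and not a member, is given for comparison. It lay at 33.0, 33.1, 27.2, 33.6 and 35.2 FPKM in controls and at 11.1, 13.0, 12.9, 14.2 and 12.9 FPKM in mutants. Its groups were far apart, with a difference of -1.28 (SE 0.10, adjusted p = 0.000375). Relative to the mean of the members it lay between -0.43 and 0.08 in controls and between -1.601 and -1.315 in mutants on the log2 scale. Of the other 7 Ndc80 and Mis12 subunits 0 passed.

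**Figure D4:**
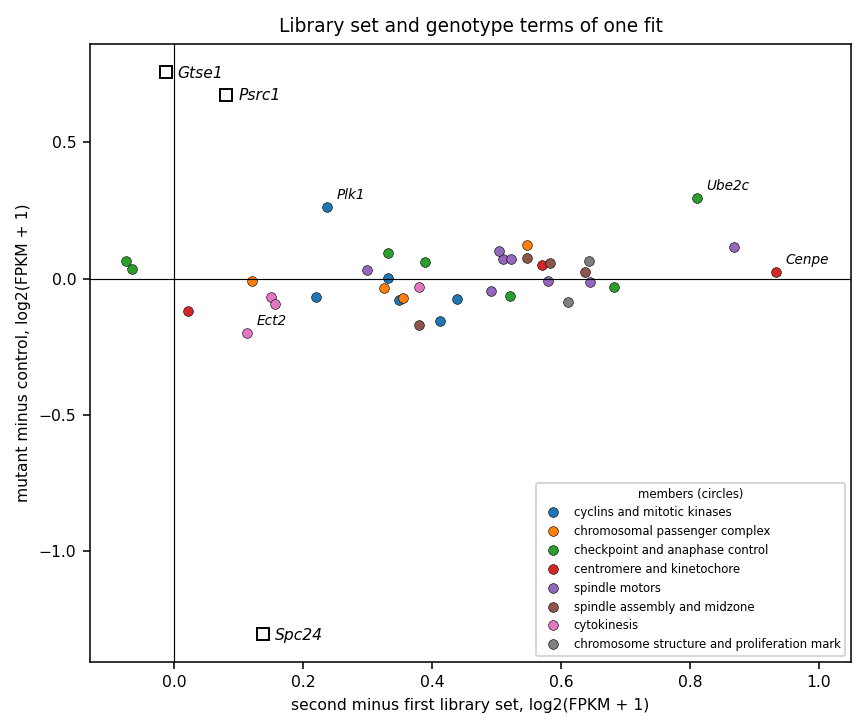
Difference between library sets (x axis) against the difference between genotypes (y axis) for the 38 members (circles, coloured by role) and for Spc24, Psrc1 and Gtse1 (squares), all on the log2(FPKM + 1) scale from one fit with both terms. The members spread along the x axis, from -0.07 to 0.93, and stay between -0.20 and 0.30 on the y axis.

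Other genes of the mitotic pathway were taken as lists. Of 65 further mitotic genes tested, 0 passed and 53 differences were above 0, with a median of 0.10 against 0.11 for all genes. Psrc1, a spindle protein also known as a p53-induced gene, lay at 14.6 to 21.8 FPKM in controls and 25.0 to 35.0 FPKM in mutants (difference 0.69, adjusted p = 0.0786). Gtse1, a microtubule protein that binds p53 and is induced by it, lay at 4.30 to 6.79 and 8.41 to 11.7 FPKM (difference 0.76, adjusted p = 0.0894). For both genes each mutant lay above each control, and both passed once the set was in the fit (adjusted p = 0.0365 and 0.0438). Cdkn3, a phosphatase of cyclin-dependent kinases, lay at 4.17 to 5.33 and 5.79 to 7.34 FPKM (adjusted p = 0.265), also without overlap.

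Subunits of the anaphase-promoting complex showed 0 calls among 16 with a median difference of 0.11, the smallest p being those of Anapc13, Anapc7 and Anapc15 (adjusted p = 0.591, 0.594 and 0.594). Regulators of the DREAM and MuvB complexes, of which MuvB binds the cell cycle homology region, showed 0 calls among 13 with a median of 0.04. Among them E2f5 lay at a difference of -0.41 (adjusted p = 0.588, and 0.0490 with the set as a term), Rbl2 at 0.36 and Rbl1 at -0.16. The S phase list gave 0 of 30 with a median of 0.02, and its second set was higher than the first by a median of 0.35. In that list Tk1, Tyms and Prim1 lay at -0.31, -0.24 and 0.25. Of 11 G1 cyclins, partners and inhibitors 0 passed, with Ccnd3 at 0.22 and Cdk6 at 0.39. Cdkn1a, the p21 inhibitor through which p53 is known to silence mitotic genes, lay at 2.00 to 2.57 FPKM in controls and 2.94 to 8.74 FPKM in mutants (adjusted p = 0.290, and 0.0373 with the set as a term).

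Markers of other cells are given beside these values, and 0 of them passed between the genotypes without the set term. With that term the neuronal gene Snap25 passed (adjusted p = 0.0231), at 1.86 to 2.60 FPKM in the 5 controls and 2.54 to 5.06 FPKM in the 5 mutants, as did the microglial complement gene C1qa (adjusted p = 0.0089), at 2.33 to 10.9 FPKM and 6.89 to 23.8 FPKM. All 9 early neuron markers lay above 0 with a median difference of 0.43, and their summed FPKM ran from 291 to 457 in controls and 378 to 554 in mutants. Radial glial markers had a median of 0.12 with 8 of 9 above 0, and intermediate progenitor markers 0.27 with 6 of 6. The 5 tested microglia and macrophage markers had a median of 0.56. Summed over all 6 markers of that list, levels ran from 10.3 to 24.1 FPKM in controls and 16.8 to 51.0 FPKM in mutants. Medians of the erythroid, endothelial and mesenchymal lists were 0.41, 0.18 and 0.21, with 4 of 5, 6 of 6 and 6 of 7 above 0. Those of the Cajal-Retzius and of the choroid plexus and hem lists were both -0.03, with 3 of 6 above 0 in each. All these stand beside a median of 0.11 and a share of 75.7% above 0 over all tested genes. No marker of these lists was under 1 FPKM in every library. In the fit that also held genotype, the median of the second minus the first set was -0.26 for early neurons (3 of 9 above 0). For microglia and macrophages it was -0.74 (0 of 5) and for mesenchyme -0.38 (1 of 7). It was 0.23 for radial glia, 0.09 for intermediate progenitors, 0.33 for erythroid and 0.08 for endothelial cells. Cajal-Retzius cells had -0.18 and choroid plexus and hem -0.02, against 0.06 for all genes. The part of these shifts in the levels of the mitosis genes was not tested.

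**Figure D5:**
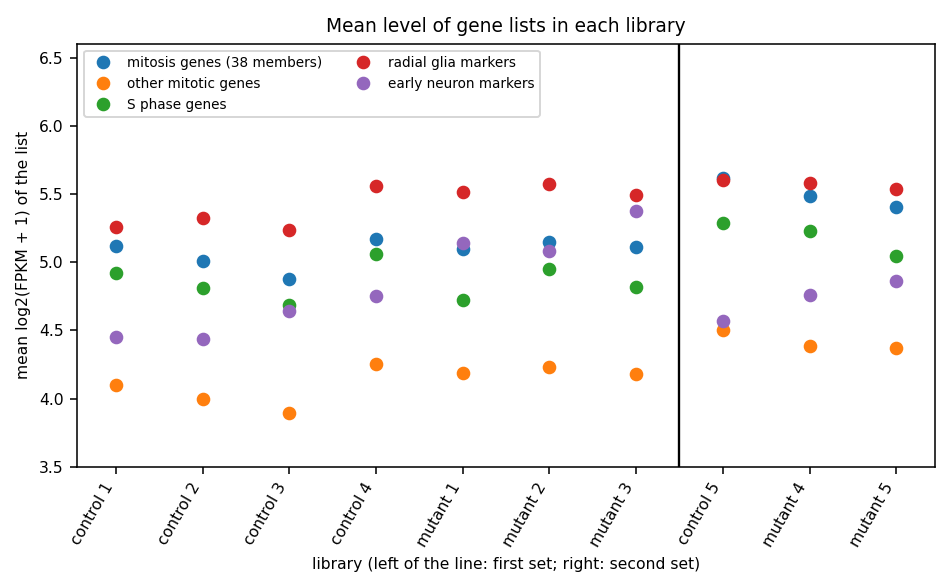
Mean log2(FPKM + 1) of the 38 mitosis genes, the further mitotic genes, S phase genes, radial glia markers and early neuron markers in each library. The mitosis genes lie at 5.40 to 5.61 right of the line (second set) and at 4.88 to 5.17 left of it. The neuron markers overlap between the sets when genotype is not held, at 4.57 to 4.86 right and 4.44 to 5.38 left. In the fit that also held genotype, their median difference between the second and the first set was -0.26.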

How the data were processed

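The 10 deposited lists give gene symbols with FPKM values that the authors computed, 1 list per library. Per the submitters' processing notes, HISAT2 and build GRCm38 (mm10) were used. Which program and gene models gave the FPKM values, and whether strand was used, are not stated in the sources used here; libraries were stranded, per the labels' protocols. Depth is not stated and was estimated from the step that 1 fragment adds to low values of single-transcript genes over 1500 bases, and no intervals for counting error are given.

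The test was limma 3.58.1 (R 4.3.3) on log2(FPKM + 1), with trend and robust moderation, over genes that reached 1 FPKM in 5 or more libraries. P-values were adjusted over all genes tested by the Benjamini-Hochberg method (threshold 0.05). The added 1 understates changes of low genes on this log2 scale. Library sets were split at 100 FPKM of Rnu12. The fit was tested on simulated data, drawn independently for each gene and library. They held no difference between library sets, so that test does not cover one. Python 3.11.15 made tables and plots.

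The members, lists and the split were chosen with earlier results of these data known. Every library's value is given for the 2 members with the largest difference and the 1 with the highest mean in each role, and for Pttg1, added after its values were seen. Up to 3 genes with the smallest p are named of each further pathway list. Of the listed symbols, Sgol2a was not matched. Coordinates of genes are from GENCODE M21 and promoters from RefSeq, both on GRCm38. Alternatives were another pseudocount, no filter, rescaling, quantile normalization, the set or the replicate number as a term, plain moderation and leaving out each library. The mean member level as a term, and the set term with rescaling, were added after seeing the data.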

Additional observations from a re-analysis of the deposited data

Results flagged for a closer look

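In 10 of 76 groups of 5 libraries (38 members in controls and in mutants) 1 library lay farther from the others than Dixon's 95% limit allows. Chance gives about 1 in 20 for independent groups, but these share the same 10 libraries, so the count cannot be set against it. Control 5, the control of the second set, was the high library in 9 of them. It stood at 15.2 FPKM for Ttk, 31.8 FPKM for Mad2l1, 71.2 FPKM for Ube2c, 28.1 FPKM for Cenpe, 32.5 FPKM for Kif15, 16.1 FPKM for Kif20b, 42.4 FPKM for Tpx2, 46.9 FPKM for Nusap1 and 58.4 FPKM for Prc1. For Ccnb2 mutant 4 was high among mutants, at 56.9 FPKM.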

How the results depend on the processing

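The count of members that passed was 0 in the fit as reported and in all 20 alternatives, with a smallest adjusted p of 0.0811, without control 5. Of these alternatives, the mean member level as a term takes out any difference shared by the members, so its count cannot show one. Among single libraries control 5 moved the median of the members most when left out, to 0.20 (0.06 relative to all genes), with 35 of 38 above 0. The set term with rescaling moved it further and the other way, to -0.11, with 4 of 38 above 0. Leaving out single libraries gave medians of 0.02 to 0.20. The median was -0.04 with rescaling, -0.01 with quantile normalization and 0.00 with the set as a term. Relative to all genes these medians lay at -0.04, -0.01 and -0.10. Of the 760 values of single members under the alternatives, 754 moved by less than 1 SD between replicates, and 7 members kept their sign throughout: Birc5, Cenpa, Diaph3, Ect2, Kif20b, Plk1 and Ube2c.

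The number of genes called over the whole table, 21, was 101 in the first set alone, 74 with the set as a term, 89 with that term and rescaling, 46 with the mean member level as a term, 35 with quantile normalization, 30 with rescaling, 11 with plain moderation and 2 with no filter. It ran from 2 to 79 when single libraries were left out, with 79 where control 5 was left out and 26 for mutant 4. It was 2 for control 1, control 2, mutant 2 or mutant 3, and it was 4 for control 3, 9 for mutant 1, 10 for mutant 5 and 11 for control 4. The cause was not tested. Rnu11 lay at 24.7% of control in the first set alone, and at 33.3 to 43.7% when single libraries were left out. In the first set alone the exact permutation test gave p = 0.0571. That is the lowest value 4 against 3 can give where the p of 1 tail is doubled. With the replicate number as a block 14 genes passed and 0 members. Same-numbered libraries correlated in their deviations at 0.08, 0.16, 0.24, -0.11 and 0.52. The first 3 of these values lie within the first set, where different-numbered pairs ran from 0.04 to 0.23. The -0.11 was for control 4 and mutant 4, which lie in different sets. The 0.52 was for control 5 and mutant 5, both in the second set, where control 5 and mutant 4 gave 0.50. Number and set are mixed in these values, so they cannot show whether same-numbered libraries were paired, which was not tested. With 5 libraries a group, changes within the intervals given remain possible for single members, and no limit of detection was computed.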
